A study of Mus musculus with 10 samples.

Results

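The genes described here encode the machinery that folds, checks and, where folding fails, removes proteins in the endoplasmic reticulum (ER). The set was given as 35 gene symbols, and 34 of them had at least 1 probe set on the array that names a single gene, out of 18194 genes so named. Sec61g was not used because its probe set names several genes. Each gene is followed on the probe set with the highest mean over all 10 arrays, and Hspa5 on all 3 of its probe sets. Of the 34 genes, 33 were bright enough to be tested. Derl3 was not.

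The tissue was aorta of male mice, hybridised to Affymetrix MOE 430V2 arrays, 5 of wild type (strain C57Bl/6; arrays F11, F14_2, F15, F16 and F17) and 5 of the NPAS2 mutant on a C57Bl/6J background (arrays F12, F13, F18, F19 and F20). All animals of both groups had at least 2 weeks of 12 h light and 12 h dark, then at least 30 h of constant darkness, and were killed at zeitgeber time 14 h. One label calls the tissue thoracic aorta, while the protocol has it run from the arch to beyond the femoral bifurcation. The single comparison is mutant against wild type, and it asks which transcripts differ in abundance between mice mutated in the clock transcription factor NPAS2 and wild type. The strain names of the groups differ as given, C57Bl/6 and C57Bl/6J. Any difference of strain or colony cannot be told apart from the mutation. The labels do not give the nature of the mutation, the age of the mice or whether each array held 1 animal, so p-values cover no more than the spread from array to array. Levels are on the log2 scale of the deposited values, and a change is the mutant mean minus the wild-type mean on that scale.

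Proteins that enter the secretory pathway pass through the Sec61 channel, lose their signal peptide, receive glycans and fold with the help of BiP (the product of Hspa5), the lectins calnexin and calreticulin, and disulfide isomerases. Misfolded chains are carried back to the cytosol and degraded. When unfolded chains accumulate, the sensors IRE1 (Ern1), ATF6 and PERK start the unfolded protein response, which raises transcription of many of these same genes. In the vessel wall, smooth muscle cells and fibroblasts use this machinery to secrete collagen and elastin.

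The arrays carried the labelled tissue: the smooth muscle genes Acta2 and Myh11 stood at 14.42 and 13.40 in wild type and at 14.38 and 13.22 in the mutant. Of 8 smooth muscle markers, all tested, 7 had lower means in the mutant and none was called. At an unadjusted limma p under 0.05 there were 4 (Myh11, Cnn1, Smtn and Lmod1, from -0.33 to -0.18). The groups did not overlap on 2 (Myh11 and Lmod1). Of all tested probe sets 15.3% reached that p, 10.6% with a lower mean, and 4.01% had no overlap. The mean level of the 8 markers ran from 11.12 to 11.41 in wild type and from 10.99 to 11.31 in the mutant. The lower limit for testing was the array's own median, which lay between 3.14 and 3.20, and 31 of the 33 tested ER genes were above the upper quartile on every array. Among 22340 tested probe sets, 48 had a limma adjusted p under 0.05, or 0.215%, and 0.094% did so with a higher mean in the mutant. Brown fat marker genes were higher in the mutant on 9 of 9 tested members, where 42.4% of all tested probe sets were higher. None was called, but 7 of the 9 had an unadjusted limma p under 0.05. The groups did not overlap on 1, Elovl3, with a change of 2.57. The mean level of the brown fat markers ran from 7.97 to 8.64 in wild type and from 8.90 to 9.58 in the mutant. Macrophage markers were higher on 7 of 7 tested members, with none called and 3 at an unadjusted limma p under 0.05 (means from 7.09 to 7.35 and from 7.22 to 7.78). Skeletal muscle markers varied within both groups (from 3.29 to 10.62 and from 3.30 to 11.33). The difference between 3' and 5' probe sets of Actb, a sign of RNA integrity, ran from 0.88 to 0.99 in wild type and from 0.93 to 1.08 in the mutant. Only mutant array F12 lay within the wild-type range, and the other mutant arrays lay above it, from 1.01 up. The same difference for Gapdh ran from -0.13 to -0.01 in wild type and from -0.21 to 0.04 in the mutant. In a piece of tissue a change in the cells present and a change in RNA per cell cannot be told apart. The part of these markers in the ER values was not tested beyond the fits with marker covariates given below.

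No gene of the ER folding machinery passed the test between mutant and wild-type aorta on its brightest probe set, and 30 of the 33 estimated changes were under 0.2 log2 units in size. On these probe sets 0 of 33 tested genes passed the limma test over all probe sets, where 0.215% of all probe sets did, and an ordinary one-way analysis of variance per probe set also called 0. At an unadjusted limma p under 0.05 there were 4 genes, Dnajb9, Sdf2l1, Xbp1 and Derl2, all with a higher mean in the mutant. That is 12.1% of the genes, where 15.3% of all tested probe sets reached it in either direction and 4.75% did so with a higher mean. The mutant mean was higher for 19 genes and lower for 14. That is 57.6% higher, against 42.4% of all tested probe sets. Under other scalings of the arrays 15 to 25 of the 33 were higher and the median change ran from -0.01 to 0.07, so its sign is not settled. Of all 22340 tested probe sets 8222 were higher in the scaling that gave 15, and 12797 in the one that gave 25. The median over all tested probe sets ran from -0.05 to 0.03 in the same scalings. As deposited, the median change of the 33 genes was 0.01, beside -0.03 over all tested probe sets, and their median absolute change was 0.09, beside 0.10. For 32 of the 33 genes the 95% interval of the change (limma, not adjusted for the number of genes) lay within 0.5 log2 units of zero, so larger changes lie outside those intervals.

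**Figure D1:**
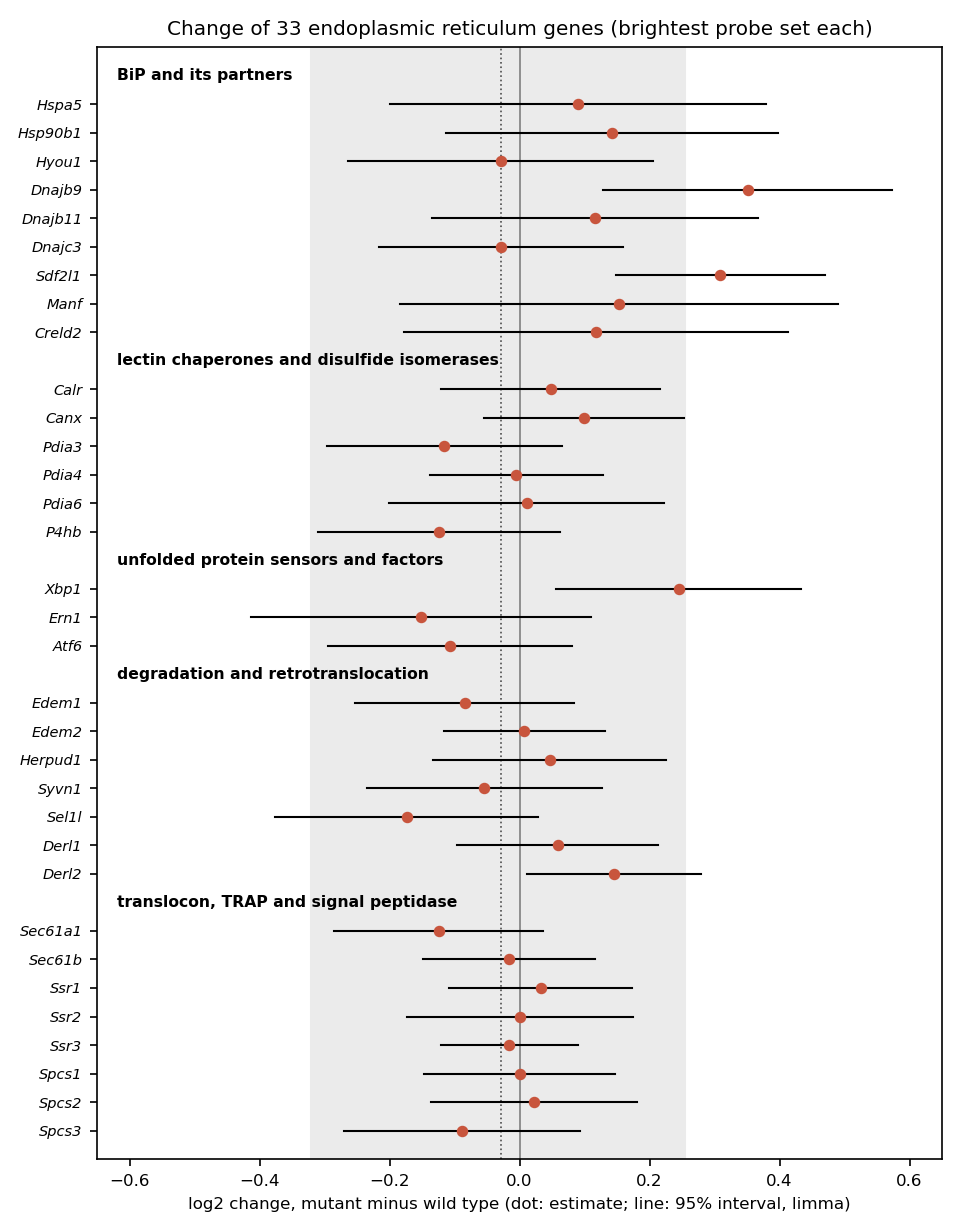
Log2 change (mutant minus wild type, horizontal axis) of the brightest probe set of 33 ER genes, grouped by role; dots are limma estimates from 5 arrays against 5, lines are 95% intervals, the grey band holds the changes between the 5th and 95th percentile of all tested probe sets (-0.32 to 0.26) and the dotted line is their median. Dnajb9 and Sdf2l1 lie to the right of the band, and most other genes lie near zero.

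BiP is the central chaperone of the ER, an Hsp70 that binds unfolded chains, and its gene gave different answers on its 3 probe sets. On the brightest, the wild-type levels were 10.85 (F11), 10.72 (F14_2), 10.81 (F15), 11.10 (F16) and 10.92 (F17), and the mutant levels were 10.66 (F12), 10.76 (F13), 10.94 (F18), 11.10 (F19) and 11.39 (F20). The groups overlapped over most of their range, with mutant arrays at both ends. The change was 0.09 ± 0.13 (SE, n = 5 per group; limma adjusted p = 0.762), and it was -0.02 without array F20. The second stood at 10.36 ± 0.19 in wild type against 10.59 ± 0.24 in the mutant (SD, n = 5 each), a change of 0.23 ± 0.13 (SE, limma adjusted p = 0.403), with the groups overlapping.

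The third Hspa5 probe set was the 1 of 74 tested ER probe sets that passed the limma test (1.35%, against 0.215% of all). It is dim, and its suffix, _x_at, marks probes that can also match other transcripts. Its wild-type levels were 4.36 (F11), 4.48 (F14_2), 4.09 (F15), 4.18 (F16) and 4.39 (F17), and its mutant levels were 4.90 (F12), 5.01 (F13), 4.94 (F18), 4.82 (F19) and 5.39 (F20). Every mutant array lay above every wild-type array. The change was 0.71 ± 0.11 (SE), or 1.64-fold (limma adjusted p = 0.0387). It passed in 1 of the 10 fits that left out an array, the one without wild type F14_2, and its size in those fits ran from 0.62 to 0.76 with adjusted p from 0.0487 to 0.108. The deposited values do not show which transcript this probe set reads. Among the 33 brightest probe sets that of Ssr3 has the same suffix, and some others, as that of Xbp1, end in _s_at. With the brightest probe set lacking both suffixes, 3 of 33 genes had an unadjusted limma p under 0.05, beside 4 above. The gene that fell out was Xbp1, with an unadjusted limma p of 0.0924 and overlapping groups on that probe set.

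**Figure D2:**
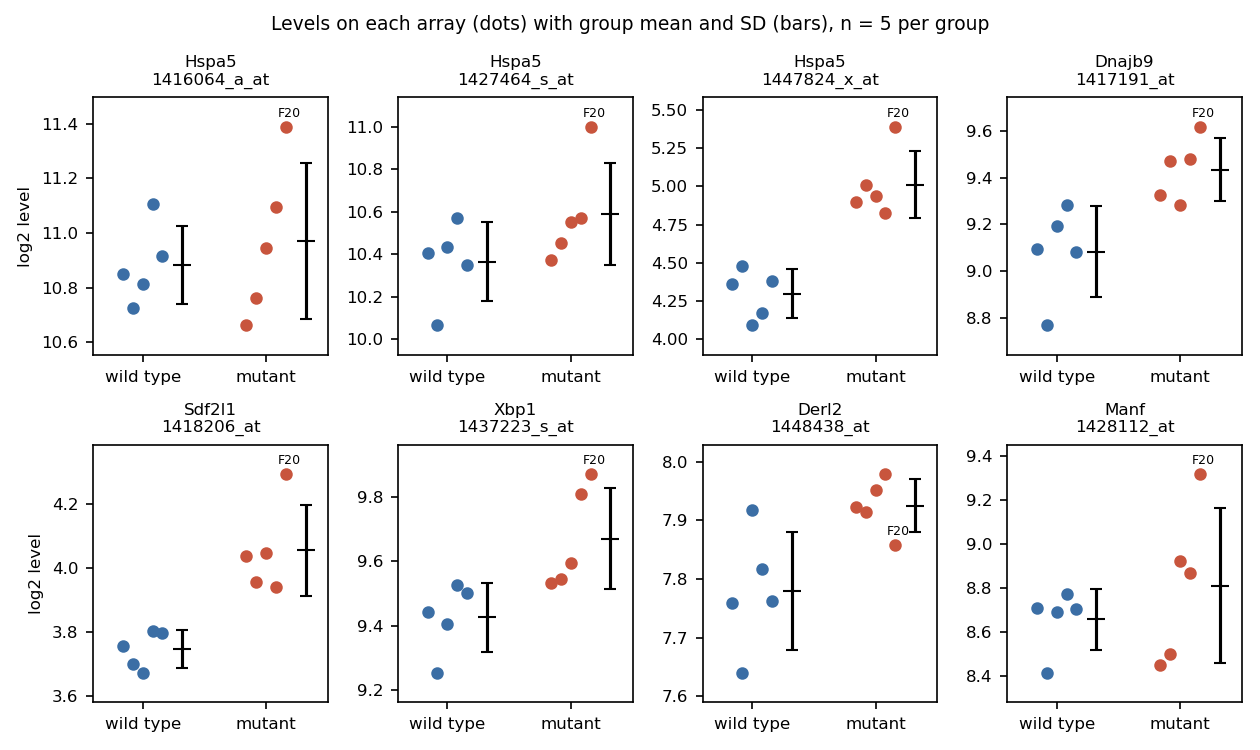
Log2 level (vertical axis, scale differing by panel) on each of 5 wild-type and 5 mutant arrays for 3 Hspa5 probe sets and for Dnajb9, Sdf2l1, Xbp1, Derl2 and Manf; dots are arrays, bars are group means with SD. The dim Hspa5 probe set separates the groups while the bright ones overlap, and mutant array F20, marked, is the highest in every panel except that of Derl2.

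Of the co-chaperones and other partners of BiP, Dnajb9 and Sdf2l1 had the largest changes of all 33 genes. Dnajb9, also called ERdj4, is a J-domain protein that recruits BiP to its clients and to IRE1. Its levels were 9.10 (F11), 8.77 (F14_2), 9.19 (F15), 9.28 (F16) and 9.08 (F17) in wild type and 9.32 (F12), 9.47 (F13), 9.28 (F18), 9.48 (F19) and 9.62 (F20) in the mutant. Only the wild-type F16 and mutant F18 arrays touched, and the other 4 mutant arrays lay above all wild-type arrays. The change was 0.35 ± 0.10 (SE), or 1.28-fold, with an unadjusted limma p of 0.00535 and an adjusted p of 0.164.

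Sdf2l1 encodes a small ER protein that works in a complex with BiP and J-domain proteins. It was dim, at 3.76 (F11), 3.70 (F14_2), 3.67 (F15), 3.80 (F16) and 3.80 (F17) in wild type and at 4.04 (F12), 3.96 (F13), 4.05 (F18), 3.94 (F19) and 4.29 (F20) in the mutant. All mutant arrays lay above all wild-type arrays, a separation that 4.01% of all tested probe sets showed in either direction and 1.5% in this one. The change was 0.31 ± 0.07 (SE), or 1.24-fold, with an unadjusted limma p of 0.00148 and an adjusted p of 0.121, the lowest of the 33 genes. Leaving out each array in turn gave an adjusted p from 0.0954 to 0.215 for Sdf2l1 and from 0.13 to 0.31 for Dnajb9.

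The other partners did not pass the test, and 1 array stood out in them. Manf, a secreted ER stress protein that binds BiP, had levels of 8.71 (F11), 8.42 (F14_2), 8.69 (F15), 8.77 (F16) and 8.70 (F17) in wild type and of 8.45 (F12), 8.50 (F13), 8.92 (F18), 8.87 (F19) and 9.32 (F20) in the mutant. Mutant arrays were thus both among the lowest and the highest, and the change was 0.15 ± 0.15 (SE, limma adjusted p = 0.636). Creld2, a secreted ER stress protein with disulfide isomerase activity, had a change of 0.12 ± 0.13 (SE). Changes were 0.14 ± 0.12 (SE) for Hsp90b1, the ER Hsp90 known as GRP94, and 0.12 ± 0.11 for the J-domain protein gene Dnajb11. Dnajc3, whose product P58IPK is a J-domain co-chaperone, and Hyou1, which encodes the nucleotide exchange factor GRP170, were both at -0.03. The dimmer Dnajc3 probe sets ran from -0.15 to 0.11, and the dimmer Hyou1 probe sets were at 0.33 and -0.08. These 6 genes had limma adjusted p from 0.559 to 0.912.

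Array F20 of the mutant was the highest of the 10 arrays for 12 of the 33 genes and for 7 of the 9 genes of this group, Hspa5, Dnajb9, Dnajb11, Dnajc3, Sdf2l1, Manf and Creld2. Over all tested probe sets it was the highest on 8.22%, while it was the highest on 36.4% of the ER genes. The median change of the 9 genes was 0.12 with all arrays, 0.03 without F20 and 0.18 without F13, and it lay between 0.09 and 0.17 without any other 1 array. With the brown fat marker mean as a covariate it was 0.39, with 9 of 9 higher. In that fit 47.1% of all tested probe sets were higher. The brown fat marker mean does not overlap between the groups (up to 8.64 in wild type, from 8.90 in the mutant). That fit therefore cannot separate it well from genotype. With the arrays centred on the median of the tested probe sets, which adds 0.06 to every change, the median change was 0.18. There 9 of 9 were higher, beside 12797 of all 22340 tested probe sets. Without F20 Manf was at 0.03, Creld2 at 0.01 and Dnajb11 at 0.06, while Dnajb9 was at 0.31 and Sdf2l1 at 0.25. The same array had the highest macrophage marker mean, 7.78, the highest adventitial fibroblast marker mean, 11.16 (from 10.63 on F14_2 to 11.07 on the others), and the highest level of Ighm, the immunoglobulin heavy chain gene, 7.24. Ighm lay between 6.08 and 6.59 on the other 9 arrays. The other 7 plasma cell and B cell markers on the array were too dim to be tested. Of these Igj was also highest on F20, at 3.93, and lay between 2.58 and 3.25 on the other 9 arrays. Mzb1, Tnfrsf17 and Pou2af1 were highest on F20 by little, at 2.073, 2.320 and 2.579. Their next highest levels were 2.064 (F18), 2.316 (F14_2) and 2.566 (F18), all below the array medians. Zic1, a brown fat marker also too dim to be tested, was likewise highest on F20, at 2.887, beside 2.860 on F12. Cd79a, Cd79b and Prdm1 were highest on F19. The part of these cells in the F20 values was not tested. At the other end, mutant array F12 was the lowest for 11 of the 33 genes (33.3%, against 15.4% of all tested probe sets) and wild-type array F14_2 for 8 (24.2%, against 12.3%), Dnajb9, Manf, Creld2, Calr, Canx, Xbp1, Derl1 and Derl2. Averaged over the 9 genes, the level relative to each gene's mean was 0.34 on F20, -0.20 on F14_2 and -0.13 on F12, and from -0.11 to 0.09 on the other 7 arrays.

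**Figure D3:**
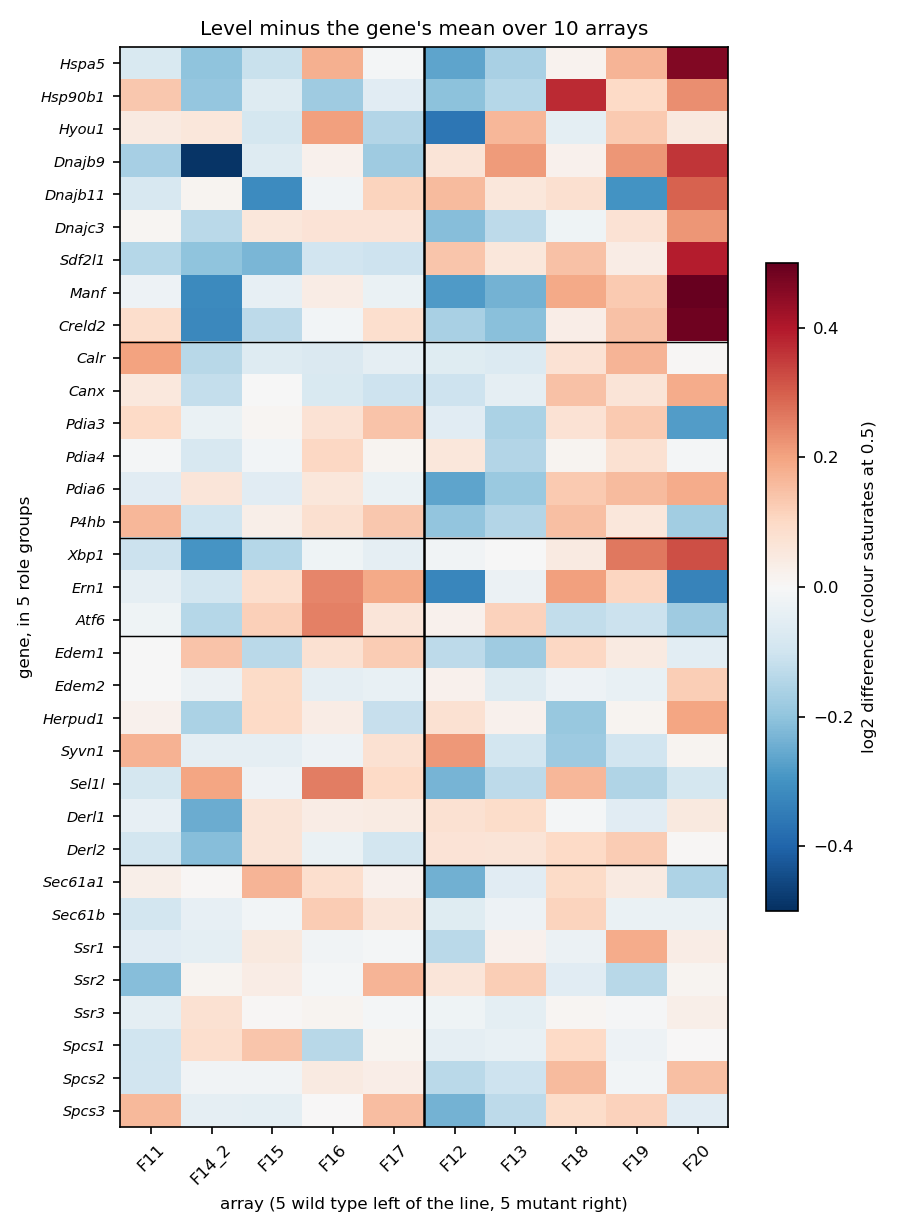
Level of each of 33 ER genes (rows, in role groups) on each of 10 arrays (columns), as the log2 difference from the gene's mean over the arrays; red is higher, blue is lower and colour saturates at 0.5. The upper rows of array F20, BiP and its partners, form the darkest red block, with F20 highest for 7 of 9 of them.

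Promoters of the measured genes were searched because the genes of this machinery are known to share an upstream element. In the unfolded protein response ATF6 acts with NF-Y on the ER stress response element (ERSE), which is CCAAT, 9 bases of any kind and CCACG. RefSeq promoter windows of mouse assembly GRCm38.p6, 250 bases before to 50 after a start, were found for 27 of the 34 genes. An exact ERSE on either strand was present in 9 of the 27 genes (33.3%), Calr, Canx, Creld2, Derl3, Dnajc3, Hsp90b1, Hspa5, Pdia6 and Syvn1. Of all 27025 genes with a window 37 had one (0.137%), and these include the 9. With at most 1 mismatch the counts were 14 of 27 (51.9%) and 466 of 27025 (1.72%). Member windows were richer in G and C, with a median of 64.5% against 52.7% over all windows, and windows were not matched for that. Below, the 250 bases before the Hspa5 start are shown first, at chr2:34771840-34772089 on the plus strand, since Hspa5 is the gene whose probe sets disagree. Short windows around ERSEs of other members follow, so that the shared letters and their orientation can be compared. Capitals mark the ERSE, each line reads 5′ to 3′ on the gene's own strand, and in Calr, Creld2 and the second Hsp90b1 site the element runs the opposite way (CGTGG first).
Hspa5: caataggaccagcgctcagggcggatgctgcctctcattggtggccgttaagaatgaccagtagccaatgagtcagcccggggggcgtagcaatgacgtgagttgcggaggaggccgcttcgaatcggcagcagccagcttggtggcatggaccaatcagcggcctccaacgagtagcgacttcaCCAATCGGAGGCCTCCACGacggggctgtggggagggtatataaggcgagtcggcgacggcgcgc
Hsp90b1, first site: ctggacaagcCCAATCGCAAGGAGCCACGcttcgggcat
Hsp90b1, second site: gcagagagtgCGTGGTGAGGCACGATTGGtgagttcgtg
Calr: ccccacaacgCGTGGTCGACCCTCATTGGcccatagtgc
Canx: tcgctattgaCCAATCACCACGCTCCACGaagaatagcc
Pdia6: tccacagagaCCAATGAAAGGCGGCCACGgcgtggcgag
Dnajc3: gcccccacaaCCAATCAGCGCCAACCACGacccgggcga
Creld2: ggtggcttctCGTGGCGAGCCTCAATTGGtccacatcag
Syvn1: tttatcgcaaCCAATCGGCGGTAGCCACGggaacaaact

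These windows lie at chr10:86705628-86705666 (first Hsp90b1, minus strand), chr10:86705523-86705561 (second Hsp90b1, minus strand), chr8:84847065-84847103 (Calr, minus strand), chr11:50325790-50325828 (Canx, minus strand), chr12:17266481-17266519 (Pdia6, plus strand), chr14:118937817-118937855 (Dnajc3, plus strand), chr15:88819510-88819548 (Creld2, plus strand) and chr19:6046522-6046560 (Syvn1, plus strand). In all 10 exact ERSEs of the 9 genes, the element lay between positions -212 and -26 relative to the start. The 8 tested genes with an exact ERSE had changes from -0.05 to 0.14, with a median of 0.07 and 6 of 8 higher in the mutant. The 18 tested genes with a window but no exact ERSE had a median change of 0.00, and 10 of them were higher. No gene of either kind passed the limma test on its brightest probe set. The related ERSE-II (ATTGG, 1 base of any kind and CCACG) was found in Herpud1 and Dnajb11, 2 of 27 genes against 12 of all 27025 (0.0444%). The Herpud1 site is shown as an example, at chr8:94386367-94386397 on the plus strand, with the element in capitals.
Herpud1: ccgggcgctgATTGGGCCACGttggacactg

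NPAS2 pairs with the Arntl (Bmal1) protein and binds E-boxes, so the canonical E-box CACGTG was searched in the same windows. It was present in Calr, Derl3, Dnajb9 and Ssr1, 4 of 27 genes (14.8%), beside 8.09% of all genes with a window. Their changes were 0.05, 0.02, 0.35 and 0.03, of which the Derl3 value comes from a probe set under the limit for testing. The 23 tested genes with a window but no E-box had a median change of 0.01, and 13 of them were higher. The Dnajb9 site is shown because Dnajb9 had the largest change of the 33 genes. It lies at chr12:44210160-44210185 on the minus strand, with the E-box in capitals at positions -107 to -102 from the start.
Dnajb9: aacagttttcCACGTGcgcgtagggc
The letters TGACGTGG, which the ATF6 and XBP1 factors can bind, were in 0 of 27 members and in 0.714% of all genes with a window. Sdf2l1 and Xbp1 held none of the 4 motifs in their windows. All motifs were searched on both strands, and no exact sites overlapped. A match is a description of these letters only, and binding was not measured.

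The lectin chaperones and disulfide isomerases did not pass the test and had small changes of both signs. Calr and Canx encode calreticulin and calnexin, which hold glycoproteins while they fold, and their changes were 0.05 ± 0.08 and 0.10 ± 0.07 (SE). Their dimmer probe sets gave 0.10 and 0.15 for Calr and 0.08 and 0.12 for Canx. Pdia3, the isomerase ERp57 that works with both lectins, stood at 10.59 ± 0.07 in wild type against 10.48 ± 0.17 in the mutant (SD, n = 5 each), a change of -0.12 ± 0.08 (SE). P4hb, which is protein disulfide isomerase and also a subunit of the prolyl hydroxylase of collagen, stood at 10.34 ± 0.11 and 10.21 ± 0.16 (SD, n = 5 each), a change of -0.12 ± 0.08 (SE). Pdia4 and Pdia6 were at -0.01 ± 0.06 and 0.01 ± 0.10 (SE). The 6 genes had limma adjusted p from 0.488 to 0.975 and a median change of 0.00.

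Among the sensors and factors of the unfolded protein response, Xbp1 had a higher mean in the mutant on all of its 4 probe sets. Xbp1 encodes the factor that IRE1 activates by splicing its mRNA. The values used here do not separate the spliced form from the unspliced. On the brightest probe set, the levels were 9.44 (F11), 9.25 (F14_2), 9.41 (F15), 9.53 (F16) and 9.50 (F17) in wild type and 9.53 (F12), 9.55 (F13), 9.60 (F18), 9.81 (F19) and 9.87 (F20) in the mutant. The groups did not overlap, but the gap between them was only 0.0060. The change was 0.24 ± 0.09 (SE), or 1.18-fold, with an unadjusted limma p of 0.0156 and an adjusted p of 0.218. On the other 3 probe sets it ran from 0.17 to 0.29, with limma adjusted p from 0.191 to 0.393, and the groups overlapped on each of these. On each of the 4 all 5 mutant arrays lay above the wild-type mean. The sensor genes themselves had lower means. Ern1 was at -0.15 ± 0.12 (SE, limma adjusted p = 0.545) and Atf6 at -0.11 ± 0.09 (SE, limma adjusted p = 0.55), neither past the threshold. The 3 Atf6 probe sets gave -0.13 to -0.09, while those of Ern1 disagreed in sign, from -0.17 to 0.21.

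Of the 7 tested genes of degradation and retrotranslocation 4 had higher means and 3 lower, and none passed. Derl2, a derlin of the channel through which misfolded proteins leave the ER, had levels of 7.76 (F11), 7.64 (F14_2), 7.92 (F15), 7.82 (F16) and 7.76 (F17) in wild type and of 7.92 (F12), 7.91 (F13), 7.95 (F18), 7.98 (F19) and 7.86 (F20) in the mutant. The wild-type F15 array lay within the mutant range, and the other 4 wild-type arrays lay below it. The change was 0.15 ± 0.06 (SE), with an unadjusted limma p of 0.0351 and an adjusted p of 0.286, but a dimmer Derl2 probe set gave -0.02. Its relative Derl1 was at 0.06 ± 0.07 (SE). Sel1l, the adaptor that joins substrates to the ubiquitin ligase Hrd1, had the lowest change of the 33 genes, -0.17 ± 0.09 (SE, limma adjusted p = 0.379). Its 4 tested probe sets all had lower means, down to -0.30 on a dim one (limma adjusted p = 0.174), and 3 of the 4 did with the arrays centred on the median of the tested probe sets. Syvn1, which encodes Hrd1, was at -0.05 ± 0.08, the mannosidase-like lectin genes Edem1 and Edem2 were at -0.08 ± 0.08 and 0.01 ± 0.06, and Herpud1, a membrane organiser of the Hrd1 complex, was at 0.05 ± 0.08 (SE). A dimmer Edem1 probe set gave 0.14, and a dimmer Herpud1 probe set gave -0.03. Derl3 stood at 2.63 ± 0.02 in wild type against 2.65 ± 0.02 in the mutant (SD, n = 5 each), below every array's median, and an exact two-sided permutation test gave p = 0.0952.

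Genes of protein entry into the ER had the smallest differences of any of the role groups by median absolute change, 0.02 over 8 tested genes, with adjusted p from 0.426 to 0.998. Sec61a1, the pore subunit of the Sec61 channel, stood at 8.73 ± 0.07 in wild type against 8.60 ± 0.14 in the mutant (SD, n = 5 each), a change of -0.12 ± 0.07 (SE, limma adjusted p = 0.426). All 6 of its tested probe sets had lower means in the mutant, from -0.24 to -0.04, and none passed. With the arrays centred on the median of the tested probe sets, which adds 0.06 to every change, 5 of the 6 were lower. Sec61b, a small channel subunit, was at -0.02 ± 0.06 (SE). Ssr1, Ssr2 and Ssr3, subunits of the translocon-associated TRAP complex, were at 0.03 ± 0.06, 0.00 ± 0.08 and -0.02 ± 0.05 (SE). Dimmer Ssr1 probe sets ran from -0.17 to 0.05. Spcs1, Spcs2 and Spcs3, subunits of the signal peptidase, were at 0.00 ± 0.07, 0.02 ± 0.07 and -0.09 ± 0.08 (SE). The 95% intervals of these 8 genes together ran from -0.29 to 0.18.

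Of the 20 genes with 2 or more tested probe sets, 11 had the same sign on all of them (6 with higher means in the mutant, 5 with lower), and 9 had both signs. With the arrays centred on the median of the tested probe sets 12 had only higher means and 1 only lower. Hspa5 had the widest spread between its probe sets, 0.62, while the median over the 20 genes was 0.13. Of the 74 tested probe sets 9 reached an unadjusted limma p under 0.05 (12.2%, against 15.3% of all), 7 of them upward and 2 downward, and the latter were of Sel1l and Sec61a1. The groups did not overlap on 3 of the 74 (4.05%, against 4.01% of all), those of Sdf2l1 and Xbp1 and the dim one of Hspa5.

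**Figure D4:**
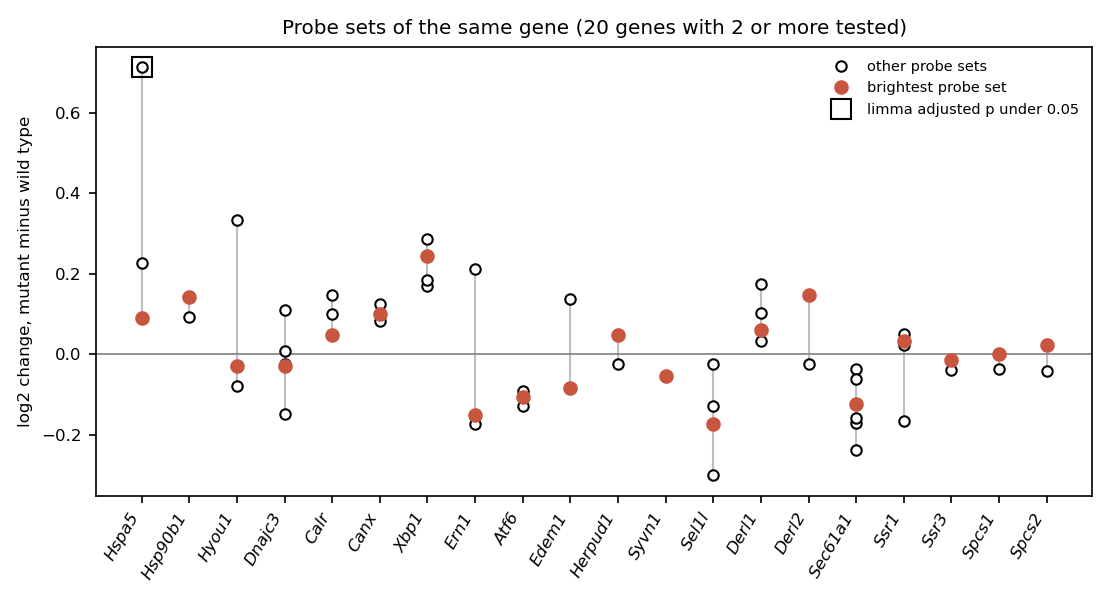
Log2 change (vertical axis, mutant minus wild type) of every tested probe set of the 20 ER genes that have 2 or more; filled dots are the brightest probe set of a gene, open dots the others, and a square marks a limma adjusted p under 0.05. The dim Hspa5 probe set at 0.71 carries the single square, and the 4 Xbp1 probe sets all lie above zero.

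Other genes of the secretory pathway, listed by function, did not pass either. Of 107 genes in 7 lists 102 were tested, and 0 passed the limma test, with 11 at an unadjusted p under 0.05 (10.8%, against 15.3% of all tested probe sets). Of these 2 were higher and 9 lower, and the latter are 8.82% of the 102, where 10.6% of all tested probe sets were lower at that p. Their means were higher in the mutant for 40 (39.2%, against 42.4% of all) and lower for 62, with a median change of -0.05, beside -0.03 over all. The groups did not overlap for 3 of the 102 (2.94%, against 4.01% of all), Ganab and Txndc5, lower on every mutant array, and Chac1, higher on every one. In the N-glycan list 13 of 13 were tested, and the largest changes were those of Ddost, a subunit of the oligosaccharyltransferase (-0.22 ± 0.07, SE), and Alg5, a glucosyltransferase of the lipid-linked glycan (-0.16 ± 0.07). The glucosidase genes Mogs and Ganab, which trim glycans for the calnexin cycle, were at -0.18 ± 0.08 and -0.15 ± 0.06 (SE), in a list of 10 tested. Among 17 other oxidoreductases and prolyl isomerases, P4ha1, the catalytic subunit that pairs with P4hb in the collagen hydroxylase, was at 0.27 ± 0.13 and Txndc5, a disulfide isomerase, at -0.27 ± 0.09 (SE). These 6 genes had limma adjusted p from 0.203 to 0.339.

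Among 16 further degradation genes Faf2, which recruits the p97 ATPase, was at -0.14 ± 0.06 and Selk, a selenoprotein of the ER membrane, at -0.13 ± 0.07 (SE). Among 15 other genes of targeting and translocation Tram2, a translocation-associated membrane protein, was at -0.37 ± 0.12 and Sec63, a J-domain partner of BiP at the channel, at -0.27 ± 0.07 (SE), with limma adjusted p of 0.201 and 0.121. In the list of PERK and other stress branches, 17 tested, 8 had higher means in the mutant and 9 lower, with a median change of -0.02. The largest changes in this list were those of 2 targets of the factor ATF4, both higher. Asns, asparagine synthetase, stood at 7.06 ± 0.12 in wild type against 7.38 ± 0.24 in the mutant (SD, n = 5 each; limma adjusted p = 0.223). Chac1, an enzyme that degrades glutathione, stood at 3.54 ± 0.04 and 3.81 ± 0.22 (SD, n = 5 each), both dim (limma adjusted p = 0.222). In the COPII list, 14 tested, Sec24d, a cargo adaptor of the vesicle coat, was at -0.28 ± 0.08 and Sar1b, its GTPase, at 0.16 ± 0.10 (SE; limma adjusted p = 0.144 and 0.433).

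With the brown fat marker mean as a covariate the median change of the 33 ER genes was 0.12 and 28 of the means were higher in the mutant (84.8%, against 47.1% of all tested probe sets in the same fit). None of these genes was called by limma, and 3 reached an unadjusted p under 0.05 (9.09%, against 7.53% of all in that fit). In that fit Hsp90b1 was at 0.45 ± 0.20, Manf at 0.54 ± 0.26 and Xbp1 at 0.43 ± 0.15 (SE), and the dim Hspa5 probe set at 0.80 ± 0.22 (limma adjusted p = 0.491). The marker mean itself does not overlap between the groups, and the standard errors of the group difference are wider than without it. With the skeletal muscle marker mean as a covariate the median change was 0.00 and again 0 were called, with 3 at an unadjusted p under 0.05 (9.09%, against 13.4% of all in that fit).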

How the data were processed

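The values are log2 expression per probe set and array, deposited by the authors in a single table of 45101 probe sets and 10 arrays. They were used as deposited, with array medians from 3.14 to 3.20. Per the submitters' processing notes, GCRMA and MAS5 were among the tools, versions and roles unstated, and the log2 scale was read from the values (1.10 to 14.74). Batches were not examined, since no scan date was among the labels or headers. Genes come from the platform annotation, leaving out 932 probe sets with several genes. Probe sets above their array's median on at least 5 of 10 arrays were tested (22340) with limma 3.58.1 (R 4.3.3), and two-sided p-values were adjusted over all of them by Benjamini-Hochberg. In 100 simulated probe sets changed by 0.5, 52 were recovered, and of 100 changed by 1, 89 (22340 probe sets, this comparison). The simulated noise was independent between probe sets, without deviations shared on an array as on F20, and smaller changes were not simulated. These counts are thus not the sensitivity for the ER genes. Named were all members, every Hspa5 probe set and, per other list, called genes or else the 2 of largest change. Members and lists were chosen with earlier results of these data known. Alternatives were the filter, normalisation, variance model, weights, probe set choice, threshold, marker covariates and leaving out each array. The centring on tested probe sets was added after the data were seen. Promoter sequences are RefSeq's, GRCm38.p6.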

Additional observations from a re-analysis of the deposited data

Results flagged for a closer look

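On 3 of 72 groups of 5 arrays (34 ER genes and 2 further Hspa5 probe sets, each in both genotypes) 1 array lay apart from the other 4 by more than 0.71 of the group's range, where chance gives about 1 in 20 groups. Manf in wild type had its lowest level on F14_2, 8.42, with the next at 8.69. Calr in wild type had its highest level on F11, 11.47, with the next at 11.23. Sec61b in the mutant had its highest level on F18, 8.63, with the next at 8.50.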

How the results depend on the processing

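In all 23 alternatives 0 of the tested ER genes passed on the brightest or averaged probe set, and the number with a higher mean stayed within 1.5 times the 19 reported. The median change moved by more than the spread between arrays in 1 fit, to 0.12 with the brown fat covariate. The count over all probe sets, 48, was 141 with the 75th percentile filter, 191 at an adjusted p of 0.10, 17 with no filter, 13 with a one-way analysis of variance, 7 with the skeletal muscle covariate and 2 with the brown fat covariate. It ran from 9 (without wild type F16) to 43 (without wild type F14_2) when 1 array was left out, and was at most 23 without any 1 of F15, F16, F17 and the 5 mutant arrays. The dim Hspa5 probe set passed in 7 of 20 alternatives in which it was fitted, with changes from 0.62 to 0.80, and fell out under the 75th percentile filter. The cause of these differences was not tested. The 48 calls were 21 higher and 27 lower, and 34 and 18 with centring on the tested probe sets. Quantile normalisation and centring turned the sign of 4 to 6 of 35 changes, and the brown fat covariate of 13. No paired analysis was possible because the groups share no replicate identifiers. The number of arrays and signals near the array median, as for Derl3 and Sdf2l1, limit the precision.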
